A study of Mus musculus with 23 samples.

Results

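The genes described here are 8 genes of antigen presentation by MHC class II molecules, of the 16259 genes in a table of normalized reads from whole proximal small intestine of the mouse: Cd74, H2-Aa, H2-Ab1, H2-Eb1, H2-DMa, H2-DMb1, H2-DMb2 and Ciita. They were taken by symbol. The set had been proposed because class II genes stood higher in mice without Ddit4, so every difference between the genotypes is given below as a description, with no test. Changes with feeding, drug and time, and differences in the knockout difference between those conditions, played no part in the choice and were tested.

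The mice, all labelled male, were wild type (12 libraries) or knockout for Ddit4, which encodes a stress-induced inhibitor of mTORC1 (11 libraries). Feeding was ad libitum in 9 libraries, 2 libraries came from mice at the end of a 24 h fast, and 12 from mice that had been through the fast and were then refed for 2, 6, 12 or 24 h, a state called prefasted here. Doxorubicin, a DNA-damaging chemotherapy, was given at 20 mg/kg into the peritoneum to the mice of 15 libraries, which were sampled 2, 6, 12 or 24 h later, and 8 libraries were untreated, sampled at 0, 2 or 6 h. The untreated libraries were 1 per genotype of the ad libitum mouse at 0 h, the fasted mouse at 0 h and the prefasted mouse at 2 h and at 6 h. Ad libitum and prefasted mice after doxorubicin were each sampled at all 4 times, except that the ad libitum knockout at 2 h was not analysed here. Each genotype and state had 1 library, so there were 12 states, 11 of them with a pair of genotypes, and no state had replicates of its own genotype. The labels do not describe the knockout allele, the strain, the age of the mice or whether animals were pooled.

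MHC class II molecules carry peptides from engulfed and degraded protein to the cell surface, where CD4+ T cells read them. Each molecule is a pair of an alpha and a beta chain that is assembled with the invariant chain, which blocks the groove until proteases remove it and the DM molecule exchanges the last fragment for a peptide. Dendritic cells, macrophages and B cells express class II constitutively, and enterocytes of the small intestine can express it too, a state that interferon gamma is known to increase. Transcription depends on the co-activator CIITA, which binds no DNA itself and acts through RFX and NF-Y proteins held at the X box and Y box of class II promoters. Whole tissue was used, so more class II RNA per cell and more cells that express it cannot be told apart.

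Some libraries stood apart. Depth was 11418000 to 23429000 reads in genes, so that 1 read was worth 0.705 to 1.67 normalized reads, and Ddit4 had 0 to 16 reads in knockout libraries against 48 to 399 in wild-type libraries. Of the untreated knockout libraries, 3 (ad libitum, fasted, and prefasted at 2 h) held at most 5 reads of 4 Y-linked genes against at least 1088 in every other library, which goes against their label of male. The 4 wild-type prefasted doxorubicin libraries have titles that say untreated, and the drug label was used. Pancreatic enzyme transcripts summed to 82800 normalized reads in the fasted knockout and 219800 in the wild-type prefasted untreated library at 6 h, far above the rest. The 11 B cell markers (among them Cd79a, Ms4a1 and Pax5) summed to 486 to 997 in 4 libraries and to 21.01 to 115 in the other 19. The 4 were the fasted knockout and 3 wild-type libraries: ad libitum untreated, ad libitum 6 h after doxorubicin, and prefasted 24 h after doxorubicin.

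Enterocyte markers identified the tissue as labelled, with a sum over 16 genes of 1066000 to 1846000 normalized reads in the wild type and 1191000 to 2144000 in the knockout. Of the 8 genes, the 3 chains and the 3 DM genes lie on mouse chromosome 17 (mm10), in the major histocompatibility region: H2-DMa at 34119541 to 34139101, H2-DMb2 at 34143307 to 34151555, H2-DMb1 at 34153072 to 34160230, H2-Ab1 at 34257689 to 34269419, H2-Aa at 34282744 to 34287823 on the minus strand, and H2-Eb1 at 34305867 to 34316674. Cd74 lies at 60803848 to 60812652 on chromosome 18 and Ciita at 10480059 to 10528418 on chromosome 16.

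Per kilobase of annotated exon, the median level in wild-type libraries ran from 1460 normalized reads for Cd74 through 632 for H2-Ab1, 327 for H2-Eb1 and 201 for H2-Aa to 38.3 for H2-DMb1 and 36.2 for H2-DMa. Ciita stood at 4.60 and H2-DMb2 at 3.91 on the same scale. In knockout libraries the order was the same, at 7905 for Cd74, 2283 for H2-Ab1, 1075 for H2-Eb1, 732 for H2-Aa, 172 for H2-DMb1, 148 for H2-DMa, 18.9 for Ciita and 2.53 for H2-DMb2. The chaperone and the chains thus stood above the 3 DM genes, and Ciita and H2-DMb2 were the lowest of the set. Neighbours in the order overlapped in their ranges over libraries, except that Ciita lay below H2-DMa in all wild-type libraries, and exon length counts every annotated isoform, so the close pair H2-DMb1 and H2-DMa is not ordered by these values.

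The invariant chain gene Cd74 was higher in the knockout library of 11 of 11 pairs. Its level in wild-type libraries was lowest at 543 normalized reads (fasted), 2451 at the median and highest at 8031 (ad libitum, 6 h after doxorubicin). In knockout libraries it was 5838 at the lowest (prefasted, 6 h after doxorubicin), 13272 at the median and 68962 at the highest (prefasted, 12 h after doxorubicin). The ranges met only through that wild-type maximum: 9 of 11 knockout libraries lay above it, and 11 of 12 wild-type libraries lay below the knockout minimum. On the log2(normalized reads + 1) scale, used for every log2 value here, the difference averaged 2.97 ± 1.25 (SD, n = 11 pairs), a 7.83-fold difference.

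The alpha and beta chains had their lowest and highest values in the same libraries as Cd74. H2-Aa, the alpha chain of the I-A molecule, had 229 normalized reads at the lowest, 765 at the median and 2225 at the highest in the wild type, and 1242, 2780 and 21772 in the knockout. H2-Ab1, its beta chain, had 607, 1624 and 5363 in the wild type and 3113, 5864 and 25566 in the knockout. H2-Eb1, the beta chain of the I-E molecule, had 145, 636 and 2058 in the wild type and 841, 2089 and 7690 in the knockout. Each chain was lowest in the fasted and highest in the ad libitum 6 h doxorubicin library of the wild type, and lowest at 6 h and highest at 12 h of the prefasted doxorubicin libraries of the knockout. The knockout library was the higher one in 11 of 11 pairs for all 3, by log2 2.45 ± 1.37 for H2-Aa, 2.20 ± 0.96 for H2-Ab1 and 2.19 ± 1.11 for H2-Eb1 (SD, n = 11 pairs).

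The peptide-loading genes split. H2-DMa, the alpha chain of DM, had 40.4 normalized reads at the lowest, 125 at the median and 396 at the highest in the wild type and 211, 509 and 1839 in the knockout. H2-DMb1, a beta chain of DM, had 11.4, 64.4 and 265 in the wild type and 125, 289 and 1837 in the knockout. Both were higher in the knockout in 11 of 11 pairs, by log2 2.27 ± 0.88 and 2.80 ± 1.26 (SD, n = 11 pairs). H2-DMb2, the other beta chain of DM, was not: it had 0 to 60.6 normalized reads in the wild type and 0 to 93.7 in the knockout, was higher in the knockout in 4 of 11 pairs, and its log2 difference was -0.36 ± 3.005. It had 0 reads in 4 libraries, 2 of each genotype, which allows up to 2.40 to 4.18 normalized reads there by the limit of 3 counts.

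Ciita, the co-activator, was higher in the knockout in 9 of 11 pairs, with a log2 difference of 1.97 ± 1.75 (SD, n = 11 pairs). It had 10.4 normalized reads at the lowest, 43.9 at the median and 83.6 at the highest in wild-type libraries, and 57.6, 180 and 712 in knockout libraries. The exceptions were the ad libitum untreated pair, with 66.4 in the wild type and 57.6 in the knockout, and the ad libitum pair 12 h after doxorubicin, with 82.8 and 73.9. In those 2 pairs Cd74 was still higher in the knockout, at 6515 against 3052 and at 13427 against 3235 normalized reads.

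Counted over the set, 6 of the 8 genes were higher in every knockout library than in its wild-type partner, as were 64 of the 11939 genes whose mean reached 10 normalized reads (0.536%). The median of the 8 mean log2 differences was 2.24, against -0.01 over all those genes. None of the 8 had knockout values that all lay above the wild-type values, which held for 1 of all those genes (0.00838%). The genes were chosen for this difference, so nothing is read from these shares. Leaving out any 1 library, or the 3 libraries without Y-linked reads (Cd74 then differed by log2 2.97), the 4 with conflicting titles, the 2 rich in pancreatic transcripts or the 4 rich in B cell markers, kept the direction for all of the genes but H2-DMb2.

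**Figure D1:**
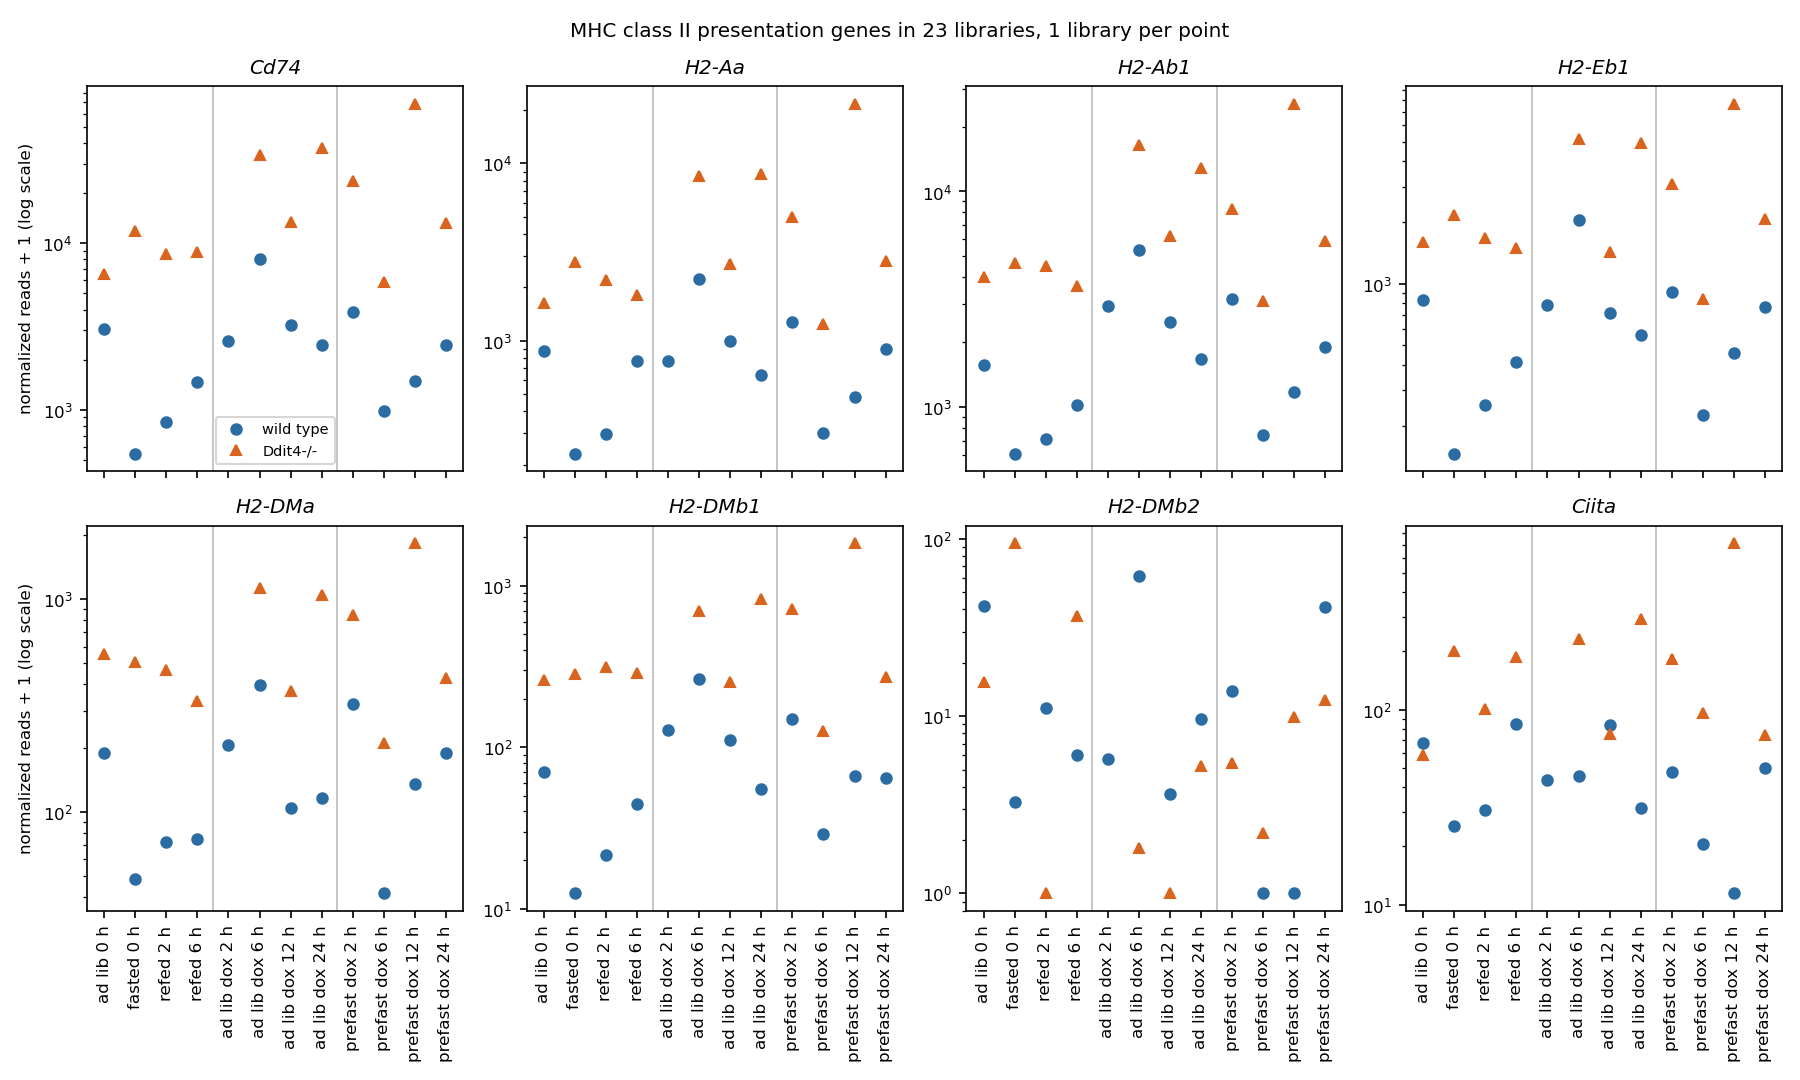
Normalized reads plus 1 (log axis) of each of the 8 genes in every library, by state along the x axis, with blue circles for wild type and orange triangles for Ddit4-/-. For Cd74, H2-Aa, H2-Ab1, H2-Eb1, H2-DMa and H2-DMb1 the triangle lies above the circle in all 11 states that hold both, whereas for H2-DMb2 it does so in 4 of 11.

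The size of the difference varied with the state. Cd74 differed least in the ad libitum untreated pair, 2.13-fold, and most in the prefasted pair 12 h after doxorubicin, 46.6-fold. The fasted pair was next, at 543 in the wild type and 11806 in the knockout, 21.7-fold, and then the ad libitum pair at 24 h after doxorubicin, at 2446 and 37069, 15.2-fold. The prefasted pair at 12 h also held the largest difference of H2-Aa (log2 5.51), H2-Ab1 (4.44), H2-Eb1 (4.08), H2-DMa (3.77), H2-DMb1 (4.79) and Ciita (5.96). Each of these values rests on 1 library of each genotype, and the wild-type library at 12 h is among those with conflicting titles.

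Whether the knockout difference itself changed with the drug was tested as an interaction of genotype and drug over the 22 paired libraries (limma, Benjamini-Hochberg adjusted over 11939 genes). None of the 8 genes passed an adjusted p of 0.05, and 0 of all genes did (0.0%); none of the 8 had an unadjusted p below 0.05 or passed in edgeR or DESeq2. For Cd74 the mean log2 difference was 2.87 ± 1.41 (SD) in the 4 untreated pairs and 3.03 ± 1.27 in the 7 doxorubicin pairs, an interaction of 0.16 with a 95% confidence interval of -1.21 to 1.54. For Ciita it was 1.41 ± 1.32 and 2.30 ± 1.98, an interaction of 0.88 (interval -1.03 to 2.80). The intervals are wide enough to hold a change of 2-fold or more in either direction for both genes. Feeding before doxorubicin likewise gave no interaction with genotype among the 8 genes (0.0% of all genes), with the 95% interval of Cd74 from -1.02 to 2.22.

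**Figure D2:**
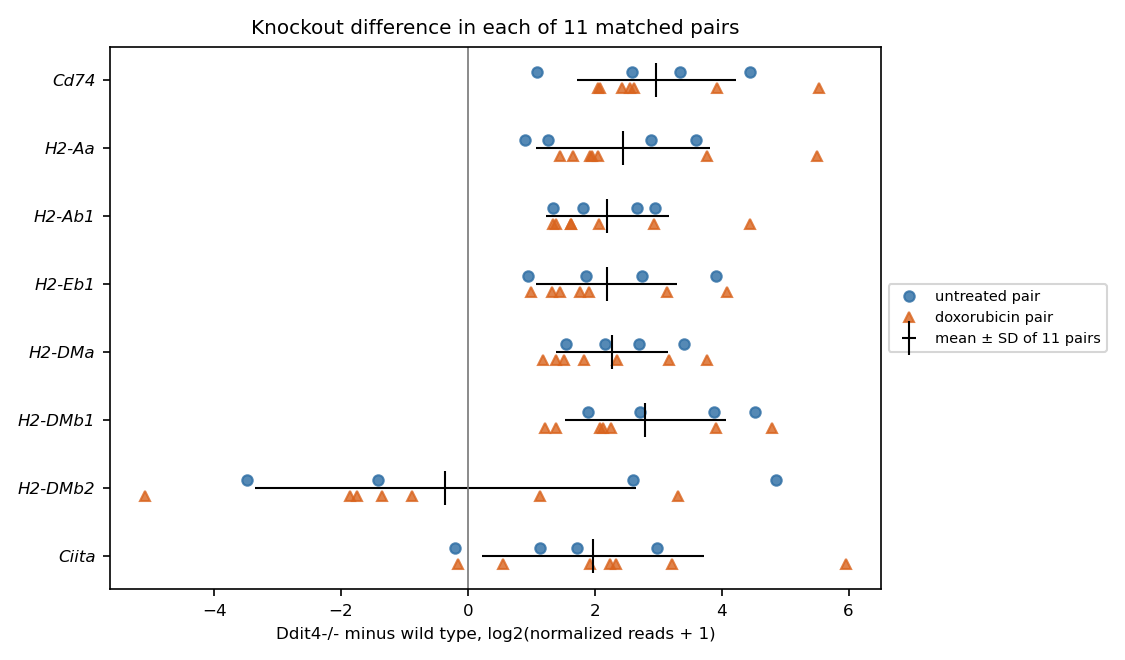
Ddit4-/- minus wild type in log2(normalized reads + 1) for each of the 11 pairs, blue circles for untreated and orange triangles for doxorubicin pairs, with the mean and SD of the 11 pairs in black. The 2 kinds of pair overlap for every gene, H2-DMb2 lies on both sides of 0, and the prefasted pair 12 h after doxorubicin is the rightmost triangle of the other genes.

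The genes also differed in how closely they moved together across libraries of the same genotype. Cd74, the 3 chains, H2-DMa and H2-DMb1 had Pearson correlations with each other of 0.872 to 0.985 over the 12 wild-type libraries and of 0.911 to 0.991 over the 11 knockout libraries. Ciita correlated with these 6 genes at 0.306 to 0.598 in the wild type and at 0.754 to 0.841 in the knockout. H2-DMb2 did so at 0.436 to 0.674 in the wild type and at -0.16 to 0.06 in the knockout. These are descriptions over libraries that share states, tissue and scaling, and the difference between genotypes was not tested.

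Even among the 6, the proportions were not fixed. The ratio of Cd74 to H2-Ab1 per exon length was 1.34 at the lowest, 1.99 at the median and 2.96 at the highest in the wild type, and 2.49, 3.46 and 4.42 in the knockout. It was higher in the knockout in 10 of 11 pairs, so the invariant chain differed between genotypes by more than the beta chain did. The ratio of H2-Aa to H2-Ab1 had medians of 0.274 in the wild type and 0.339 in the knockout and was higher in the knockout in 8 of 11 pairs. That of H2-Eb1 to H2-Ab1, with medians of 0.454 and 0.492, was higher in 5 of 11, and that of H2-Ab1 to H2-DMa, with medians of 17.7 and 16.4, in 4 of 11, so these kept no direction.

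Promoter sequences were looked at because the genes move together and share a known promoter layout, an X box followed by a Y box. RefSeq windows of 250 bases before to 50 bases after a start (GRCm38.p6) were held for 5 of the 8 genes: H2-Aa, H2-DMa, H2-DMb1, H2-DMb2 and H2-Eb1. In the stretches below, 5′ to 3′ on the strand of the gene, capitals mark the X box where it is matched with at most 1 mismatch and the Y box core ATTGG. The runs stop at the first exon that GENCODE annotates within the window, which for H2-DMb2 lies inside the annotated gene and not at its start. For H2-DMb1, where that exon starts before the X box, 30 bases from the X box on are shown.
H2-Eb1, chr17:34305717-34305866, plus strand: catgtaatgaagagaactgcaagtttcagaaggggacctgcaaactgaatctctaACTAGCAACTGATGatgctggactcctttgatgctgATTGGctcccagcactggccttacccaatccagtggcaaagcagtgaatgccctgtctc
H2-Aa, chr17:34287824-34287973, minus strand: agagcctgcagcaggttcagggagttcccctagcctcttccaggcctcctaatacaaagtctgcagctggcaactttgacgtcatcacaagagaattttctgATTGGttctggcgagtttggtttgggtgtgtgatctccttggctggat
H2-DMb2, chr17:34145099-34145235, plus strand: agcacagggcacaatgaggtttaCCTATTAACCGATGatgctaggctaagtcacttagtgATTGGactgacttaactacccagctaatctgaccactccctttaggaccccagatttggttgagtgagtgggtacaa
H2-DMb1, chr17:34153093-34153122, plus strand: CCTAGTAACTGATGatgctaggctgattca

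H2-DMb1 matched the X box with 0 mismatches, and H2-DMb2 and H2-Eb1 with 1. A match with at most 1 mismatch, on either strand, was held by 0.712% of all 32851 windows, and ATTGG, on either strand, by 37.4%. In the 3 genes ATTGG followed the X box after 23, 23 and 22 bases, and the 2 motifs in this order, 15 to 30 bases apart, occurred in 11 windows (0.0335%), among them those of H2-Ob and H2-Eb2, further class II genes. These limits were set after the windows of the 8 genes had been seen. In the window of H2-Aa, which held ATTGG, the best X box match had 3 mismatches, as 52.8% of windows hold, and a window of H2-DMa held ATTGG and no X box within 1 mismatch. The X box was sought as 1 pattern of 14 bases without gaps, so an X box that departs further from it would be missed. The interferon gamma-activated site TTCNNNGAA was found in the window of H2-DMb2 (8.3% of windows), and the E box CACGTG in none of the 5 genes (7.15%).

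H2-DMb1, which differed between genotypes in every pair, and H2-DMb2, which did not, have 37 of 42 bases the same from the X box to the end of ATTGG. The transcripts of the 2 genes share 21.2% of the 50-base runs of H2-DMb2 and 4.14% of its 150-base runs, so reads could be assigned to either in places, and the way the authors resolved this is not given in the sources used here. In the 4 libraries rich in B cell markers, H2-DMb2 held 24.8%, 36.9%, 18.6% and 38.9% of the reads of both DM beta genes. High shares were not confined to these libraries. The wild-type prefasted untreated library at 2 h had 33.3%, on 11 reads of H2-DMb2. The fasted wild type had 16.7%, on 3 reads, and the wild-type ad libitum library 24 h after doxorubicin 13.8%, on 8 reads. The share was 0.116% to 0.617% in 4 of the knockout libraries with the most H2-DMb1, so it was not constant.

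H2-DMb2 had its highest values in the 4 libraries rich in B cell markers. There it stood at 93.7 (fasted knockout), 60.6 (wild type, ad libitum, 6 h after doxorubicin), 40.6 (wild type, ad libitum, untreated) and 40.3 normalized reads (wild type, prefasted, 24 h after doxorubicin), against 0 to 35.6 and a median of 4.42 in the other 19 libraries. The groups do not overlap. H2-Ob, the beta chain of DO, which inhibits DM and is known mainly from B cells, had 34.7 to 63.8 in these 4 libraries and 0 to 20.9 in the others, H2-Oa, its alpha chain, 13.9 to 22.5 and 0 to 13.4, and H2-Eb2, a further beta chain gene, 19.8 to 88.1 and 0 to 8.85. Over both genotypes H2-DMb1 did not follow, at 63.3 to 285 in the 4 and 11.4 to 1837 in the others. Nor did Cd74, at 2456 to 11806 and 543 to 68962. Knockout libraries hold the high ends of these ranges. Among wild-type libraries, Cd74 had 2456 to 8031 in those rich in B cell markers and 543 to 3864 in the others. The Pearson correlation with the marker sum, both in log2, was 0.521 for Cd74 and 0.346 for H2-DMb1 in the wild type. In the knockout it was 0.07 and 0.0671. For H2-DMb2 it was 0.779 in the wild type and 0.699 in the knockout. The 4 libraries were picked by the B cell markers, after those had been seen, and how far B cells account for the class II values was not tested. The median was 0 in each genotype for 5 of the 11 B cell markers.

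**Figure D3:**
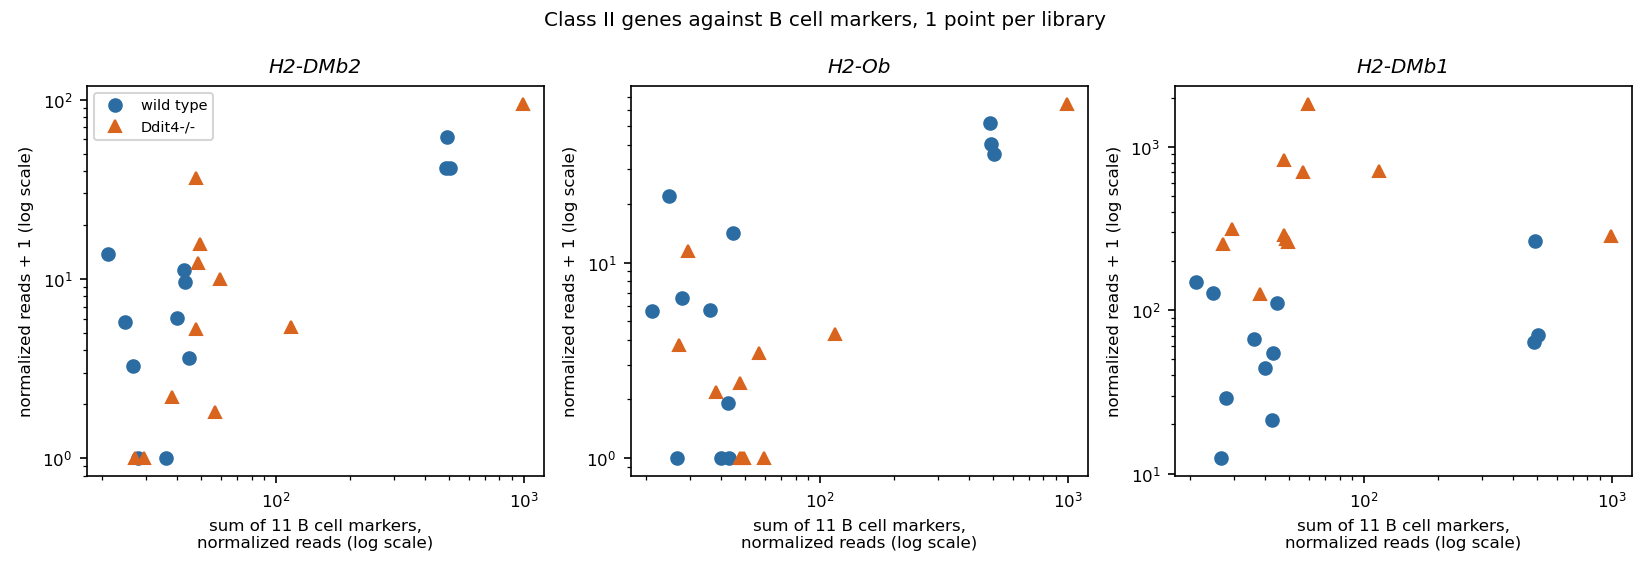
Normalized reads plus 1 of H2-DMb2, H2-Ob and H2-DMb1 (log axes) against the summed normalized reads of 11 B cell markers (log axis), 1 point per library, blue circles for wild type and orange triangles for Ddit4-/-. H2-DMb2 and H2-Ob are highest in the 4 libraries with a marker sum above 400, whereas H2-DMb1 is highest among libraries with a sum below 100.

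Markers of the other cells that express class II were set beside the genotype difference, with values only. For the B cell markers the median log2 difference was -0.54, and their sum was higher in the knockout in 6 of 11 pairs. The 13 macrophage markers (among them Csf1r, Adgre1 and C1qa) had a median of -0.16, and their sum ranged from 2531 to 9077 normalized reads in the wild type and from 2082 to 8967 in the knockout, higher in the knockout in 2 of 11 pairs. Most of this sum was Mertk, with 1821 to 7543 in the wild type and 1495 to 8254 in the knockout, also higher in 2 of 11 pairs. Csf1r, Adgre1 and C1qa were each higher in the knockout in 5 of 11 pairs. The 11 dendritic cell markers had a median of -0.12, while their sum, 206 to 541 in the wild type and 324 to 816 in the knockout, was higher in 10 of 11 pairs. That sum is mostly Itgae, the integrin alpha E chain that intraepithelial T cells carry as well (160 to 345 in the wild type, 244 to 643 in the knockout, higher in every pair). Itgax, the integrin alpha X chain known from dendritic cells, had 9.75 to 116 and 45.2 to 146 normalized reads. It was higher in the knockout in 9 of 11 pairs, with a mean log2 difference of 0.76. Of the other 9, Xcr1, Clec9a and Ccr7 had a median of 0 in the knockout. No other median exceeded 13.3 in the wild type or 7.499 in the knockout. Medians were lower in the knockout for Cd209a (13.29 and 7.499), Clec10a (6.206 and 2.684), Flt3 (6.581 and 5.671) and Siglech (3.866 and 2.385). They were higher for Zbtb46 (3.411 and 6.562) and Batf3 (1.735 and 2.212). T cell markers, 12 of 13 of which were in the table, had a median of 0.51 and a sum of 962 to 1781 in the wild type and 1375 to 3210 in the knockout, higher in 11 of 11 pairs. The part of any of these cells in the class II difference was not tested.

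The known regulators of class II transcription showed little difference between the genotypes. Over 18 genes the median log2 difference was -0.03, and no gene had a mean above 1. Rfx5, Rfxank and Rfxap, the subunits of the RFX complex, differed by 0.12, -0.03 and -0.03, and the NF-Y genes Nfya, Nfyb and Nfyc by 0.12, 0.11 and 0.03. Irf1, a transcription factor of the interferon response, differed by 0.31 and Irf8, known from myeloid cells and B cells, by 0.48. Ciita thus differed between the genotypes by more than each of these genes, in the same contrast that chose the set.

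Genes of interferon gamma signalling lay in between. Of 23 genes, the median log2 difference was 0.36, and 1 gene, Gbp6, had a mean above 1 (1.19), with 3.796 to 67.7 normalized reads in the wild type and 27.4 to 157 in the knockout. The GTPase genes Igtp, Irgm2 and Irgm1, which defend against vacuolar microbes, differed by 0.93, 0.83 and 0.65. The receptor genes Ifngr1 and Ifngr2 differed by 0.14 and 0.02, and Ifng itself had a median of 0 in both genotypes, with at most 10.5 normalized reads. Proteases and their inhibitor, which process the invariant chain and antigens (9 genes, among them Ctss and Lgmn), had a median of 0.09, and other class II and traffic genes (8 genes) one of 0.05.

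**Figure D4:**
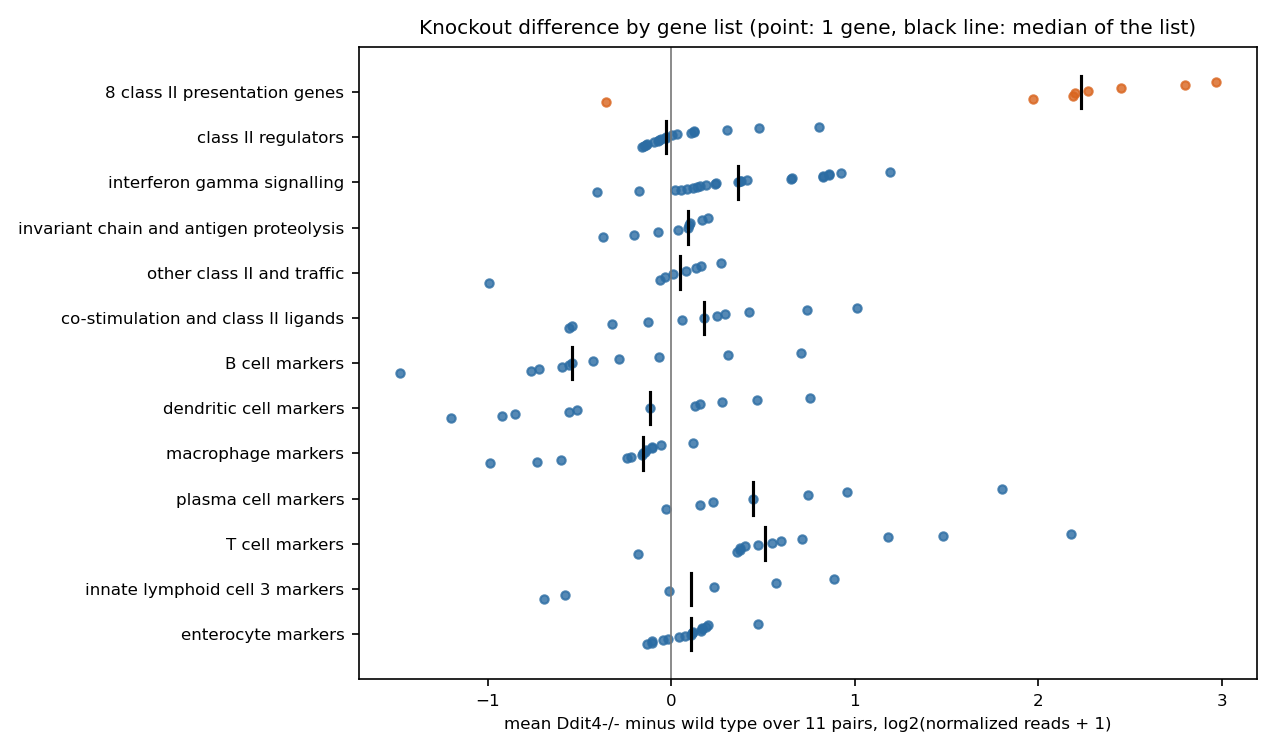
Mean Ddit4-/- minus wild type over 11 pairs in log2(normalized reads + 1), 1 point per gene, with the median of each gene list as a black line. Of the 8 class II presentation genes, in orange, 7 lie at or above 1.97, whereas the medians of the other 12 lists shown lie between -0.54 and 0.51 (pancreatic and Y-linked genes are not shown).

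The genes whose pattern was most like the mean of the 8 were sought among the 9547 genes whose mean reached 50 normalized reads. In the 12 wild-type libraries they were Coro1a, an actin-binding protein of leukocytes, with a Pearson correlation of 0.949, and Hcls1, a cytoskeletal protein of blood cells, with 0.88, followed by Eml2, Tmbim6, Hexa, Wbp1, Degs2 and Hyal2 at 0.863 to 0.828. In the 11 knockout libraries they were Chsy1 (0.874), the kinase gene Fyn (0.853), Nsmaf, Fgfr2, Nkg7, a granule protein of cytotoxic lymphocytes (0.818), Spn, Itgax (0.797) and Tap1, the peptide transporter of MHC class I (0.789). No gene was in both lists, and Coro1a had 0.588 in the knockout while Chsy1 had 0.005 in the wild type. Itgax had 0.752 in the wild type, the highest value in the other genotype among the listed genes. These correlations are descriptions over few libraries, the best of many genes.

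With doxorubicin, Cd74, H2-Ab1 and H2-DMb1 rose. Over all libraries, 15 with and 8 without the drug, with genotype as a covariate (limma), these 3 of the 8 genes passed and none fell, and 20.3% of all genes passed, and 10.3% of all genes rose. Cd74 had 543, 845, 1476 and 3052 normalized reads in the 4 untreated wild-type libraries and 989 to 8031 (median 2516) in the 8 treated ones. In the knockout it had 6515, 8597, 8841 and 11806 untreated and 5838 to 68962 (median 23609) in the 7 treated libraries. The treated and untreated libraries overlapped in both genotypes. Cd74 rose by log2 1.21 ± 0.37 (SE, limma adjusted p = 0.0223), H2-Ab1 by 1.15 ± 0.32 (adjusted p = 0.0126) and H2-DMb1 by 1.17 ± 0.41 (adjusted p = 0.0450).

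For H2-Ab1 the untreated libraries held 607, 714, 1028 and 1576 normalized reads in the wild type and 3630, 4004, 4514 and 4672 in the knockout, against treated medians of 2187 and 8322. H2-DMb1 had 11.4, 20.3, 43.5 and 69.4 in the untreated wild type and 260, 285, 289 and 314 in the untreated knockout, against treated medians of 87.3 and 698. Untreated knockout libraries were thus close to each other, and treated ones were spread widely, from 125 to 1837 for H2-DMb1. H2-Aa (log2 1.03, limma adjusted p = 0.0636) and H2-Eb1 (0.88, adjusted p = 0.0863) did not pass, nor did H2-DMa (0.73, adjusted p = 0.160), H2-DMb2 (-1.19, adjusted p = 0.329) or Ciita (0.07, adjusted p = 0.917). The median change of the 8 was 0.95, against 0.01 over all genes.

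Untreated libraries came only from 0 to 6 h and treated ones from 2 to 24 h. The libraries from the end of the fast were all untreated, and feeding was not in this fit. All 3 libraries without Y-linked reads are untreated as well. The drug, time, feeding and the libraries without Y-linked reads thus cannot be told apart in full: the 4 Y-linked genes rose too, by log2 2.78 for Kdm5d to 3.59 for Eif2s3y. Without those 3 libraries 0 of the 8 genes passed, with changes of 1.17 for Cd74, 1.21 for H2-Ab1 and 1.36 for H2-DMb1 (limma adjusted p = 0.138, 0.0738 and 0.123). Without the fasted wild type, or without the wild-type prefasted untreated library at 2 h, only H2-Ab1 passed. H2-DMb1 also lost its call in many of the other alternatives, 19 of 36 in all. With edgeR or DESeq2 on the reads, 5 passed, H2-Aa and H2-Eb1 being added.

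Among genes of the same pathway, 12 of 21 tested interferon gamma signalling genes rose over all libraries with doxorubicin and none fell, with a median change of 0.73, where 10.3% of all genes rose. Nlrc5, the co-activator of MHC class I genes, rose by log2 1.38 ± 0.31 (SE, limma adjusted p = 0.00352), and Irgm2 and Igtp rose by 0.78 and 0.73. This count fell to 4 of 21 without the 3 libraries without Y-linked reads, to 7 without the wild-type prefasted untreated library at 2 h and to 6 without the knockout one. Of the 18 regulators 4 rose (Irf2, Crebbp, Ep300 and Kat2b, by 0.30 to 0.50) and none fell, a share of 22.2% against the same 10.3%. Of the proteolysis genes 1 of 9 fell, the cathepsin gene Ctsh, by 0.75, and none rose. Of the 6 tested other class II and traffic genes 2 fell and none rose, where 9.98% of all genes fell. T cell markers rose in 5 of 9 tested genes (55.6%), macrophage markers in 3 of 13 (23.1%; Mertk, C1qb and Cd68), dendritic cell markers in 0 of 3 and B cell markers in 0 of 4. Their part in the class II change was not tested.

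At single times none of the 8 genes passed (limma, edgeR or DESeq2), and the direction differed between times. In ad libitum mice 6 h after doxorubicin, Cd74 stood at 8031 in the wild type and 33847 in the knockout, against 3052 and 6515 untreated, a log2 change of 1.89 ± 0.71 (SE, limma adjusted p = 0.221). H2-Ab1 stood at 5363 and 16449 against 1576 and 4004 (1.90 ± 0.55, adjusted p = 0.101). The 6 correlated genes were higher in both genotypes at this time, though none passed, where 1.34% of all genes did. An unadjusted p below 0.05 was held by 5 of the 8 and by 1763 of all 11939 genes tested (limma). Without the 3 libraries without Y-linked reads the change of Cd74 was 0.95. H2-Ab1 alone passed with array weights or without the 4 libraries with conflicting titles. At 12 h the median change of the 8 was 0.32 with 0 of 8 passing (9.0% of all genes), and at 24 h it was 0.63 with 0 of 8 (3.11%); no gene of the set had an unadjusted p below 0.05 at either time.

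At 24 h the genotypes stood apart for some of the genes. In the wild type Cd74 was at 2446 normalized reads against 3052 untreated, H2-Aa at 641 against 875 and Ciita at 30.3 against 66.4. In the knockout Cd74 was at 37069 against 6515, H2-Aa at 8695 against 1637 and Ciita at 291 against 57.6. For these 3 genes, and for H2-Eb1, H2-DMa and H2-DMb1, the wild-type value was below the untreated one and the knockout value above it. H2-Ab1 was higher in both genotypes (1671 against 1576 and 12819 against 4004), and H2-DMb2 lower in both. The ad libitum untreated wild type is rich in B cell markers and the ad libitum untreated knockout lacks Y-linked reads, unlike the libraries at 24 h. These traits of the untreated libraries and the drug cannot be told apart here. With 1 library each, the difference between genotypes at 24 h was not tested on its own.

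Prefasted mice were compared with prefasted untreated mice of the same time. At 2 h after doxorubicin all 8 genes were higher in both genotypes: Cd74 stood at 3864 against 845 normalized reads in the wild type and at 23609 against 8597 in the knockout (log2 1.82 ± 0.71, SE, limma adjusted p = 0.335). For H2-DMb2 this rests on few reads: 11 against 11 in the wild type, higher only after scaling, and 4 against 0 in the knockout. H2-DMb1 stood at 148 against 20.3 and at 712 against 314 (1.99 ± 0.73, adjusted p = 0.305). None of the 8 passed, and 0.0335% of all genes did. An unadjusted p below 0.05 was held by 6 of the 8 and by 1358 of all 11939 genes tested (limma). At 6 h all 8 were lower in both genotypes, Cd74 at 989 against 1476 and at 5838 against 8841 (log2 -0.59 ± 0.71, adjusted p = 0.788) and Ciita at 19.5 against 83.6 and at 95.4 against 186. H2-DMb2 had 0 against 3 reads in the wild type at this time. None of the 8 passed there either (0.0% of all genes), and 0 of the 8 had an unadjusted p below 0.05. The wild-type treated libraries at both times are among those with conflicting titles, and the untreated knockout library at 2 h is among those without Y-linked reads. The untreated wild-type library at 6 h is rich in pancreatic transcripts.

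**Figure D5:**
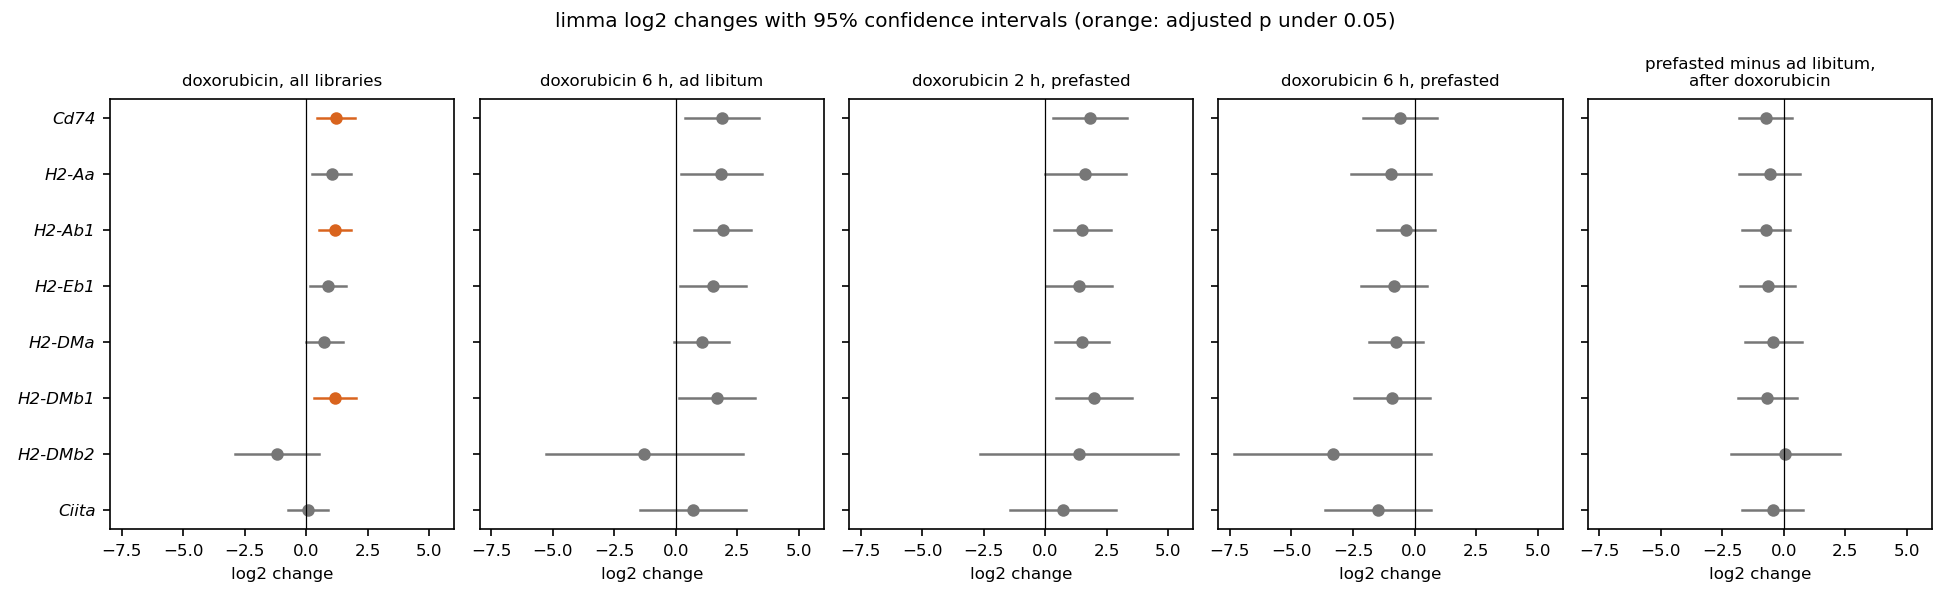
Log2 change of each gene with its 95% confidence interval (limma) for doxorubicin over all libraries, for 3 single-time comparisons with doxorubicin, and for prefasted minus ad libitum mice after doxorubicin. Orange points, Cd74, H2-Ab1 and H2-DMb1 in the first panel, had an adjusted p below 0.05, and the panel for 6 h in prefasted mice is the one among the 4 doxorubicin panels where every point lies below 0.

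Without the drug, the fasted and the ad libitum library stood in opposite order in the 2 genotypes for every gene of the set but H2-DMa. Cd74 had 3052 normalized reads in the ad libitum and 543 in the fasted wild type, and 6515 and 11806 in the knockout. H2-Eb1 had 826 and 145 in the wild type and 1594 and 2181 in the knockout, and Ciita 66.4 and 24.4 and then 57.6 and 200. The wild type was thus lower when fasted for these genes and the knockout higher, each from 1 library, and the difference between genotypes was not tested. The ad libitum wild type and the fasted knockout are both rich in B cell markers, and the knockout pair lacks Y-linked reads. Over both genotypes 0 of the 8 genes passed for fasting (0.343% of all genes), and no gene of the set had an unadjusted p below 0.05, with changes of log2 -0.82 ± 0.71 for Cd74 (SE, limma adjusted p = 0.914) and -1.05 ± 0.52 for H2-DMa (adjusted p = 0.729).

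After the fast, the untreated wild type stood at 845 normalized reads of Cd74 at 2 h and 1476 at 6 h, from 543, while the knockout stood at 8597 and 8841, from 11806. H2-Aa had 298 and 762, from 229, in the wild type and 2195 and 1819, from 2780, in the knockout. For these 2 genes the wild-type values lay above the fasted one at both times and the knockout values below it, whereas H2-DMb1 was above the fasted value in the knockout too (314 and 289, from 285). The fasted knockout is rich in B cell markers and in pancreatic transcripts and lacks Y-linked reads. The untreated knockout at 2 h lacks Y-linked reads as well, and the untreated wild type at 6 h is rich in pancreatic transcripts. None of the 8 genes passed at 2 h (0.251% of all genes) or at 6 h (7.02%), with median changes of 0.09 and 0.49 and no unadjusted p below 0.05 in the set (limma).

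Prefasting before doxorubicin was tested in 7 pairs matched on genotype and time. None of the 8 genes passed in limma, edgeR or DESeq2 or had an unadjusted p below 0.05, and 0.0% of all genes passed. Cd74 was higher in the prefasted library of 3 of 7 pairs, with a log2 change of -0.74 ± 0.50 (SE, limma adjusted p = 0.772), and its 95% confidence interval ran from -1.84 to 0.35. At 6 h the prefasted libraries were lower in both genotypes, 989 against 8031 and 5838 against 33847 normalized reads, whereas at 12 h the knockout was higher, 68962 against 13427, and the wild type lower, 1481 against 3235. Libraries at 12 and 24 h after doxorubicin did not differ beyond the test from those at 2 and 6 h either (0 of 8, 0.0586% of all genes), with a change of 0.05 for Cd74 and an interval from -0.92 to 1.02.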

How the data were processed

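RNA from whole proximal small intestine was poly-A selected by the authors and sequenced as non-directional 150-base pairs, per the labels' protocols. Trim Galore, STAR, DESeq2 and the build mm10 are named in the submitters' processing notes. The deposited table holds signal values, read counts divided by 1 factor per library. The counting tool and annotation are not given in the sources used here. Reads were recovered from each library's step: 100% of the values were whole to within 0.01 read.

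The 8 genes and 14 further gene lists were chosen with earlier results of these data known. The 11939 genes whose mean reached 10 normalized reads (all 8 included) were tested two-sided as log2(value + 1) with limma 3.58.1 (eBayes with trend, R 4.3.3). P-values were adjusted by Benjamini-Hochberg over these genes, and 0.05 was the threshold. A single-time contrast had 12 states plus genotype over 23 libraries, so the pair of genotypes stands in for replicates, and p-values cover the spread among these libraries alone, which may be technical. Alternatives were other pseudocounts, filters and scalings, array weights, edgeR 4.0.16 and DESeq2 1.42.0 on recovered reads, and libraries left out. The tests of doxorubicin over all libraries, doxorubicin at 6 h in ad libitum mice, prefasting, and genotype by drug were checked on simulated data. Of 100 genes changed 2-fold, 95%, 55%, 89% and 65% were recovered, in that order. False calls among the 11939 genes were 4, 3, 14 and 2. A 2-fold change at a single time could thus be missed. All 8 genes are named, with up to 3 genes of smallest p per list and the 8 most alike genes per genotype; other genes were named as textbook members of their list after their values were seen. Positions are from GENCODE vM21 (mm10). Some genes of the lists are not reported here.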

Additional observations from a re-analysis of the deposited data

How the results depend on the processing

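Depth limits H2-DMb2 and Ciita most, since single libraries held 0 to 100 and 11 to 796 of their reads. With 1 library per genotype and state, a change at a single time rests on 4 libraries, and when 1 is left out the other is assumed to vary like the rest. The difference between knockout and wild type, with a median of 2.24 over the 8 genes, ranged from 2.06 to 2.33 when any 1 library was left out. It kept its direction under all alternatives but array weights, edgeR and DESeq2, for which it was not computed. The difference of H2-DMb2 became 0.12 without the wild-type or the knockout ad libitum library 6 h after doxorubicin (range -0.88 to 0.12). In 11 of the 13 comparisons 0 of the 8 genes passed under every alternative. Doxorubicin over all libraries called 5 genes with edgeR, 5 with DESeq2 and 0 without the 3 libraries without Y-linked reads, and 1 to 5 when any 1 library was left out (1 without the wild-type fasted or the wild-type prefasted untreated 2 h library; 5 without the wild-type ad libitum untreated library or either prefasted library 6 h after doxorubicin). Doxorubicin at 6 h in ad libitum mice called 1 gene with array weights, 1 without the 4 libraries with conflicting titles, and 0 to 1 when any 1 library was left out (1 without either prefasted library 12 h after doxorubicin). Without the libraries without Y-linked reads, Ciita went to -0.46 at 6 h in ad libitum mice and -0.28 over all libraries, and H2-DMb2 to -0.13 at 2 h in prefasted mice. When any 1 library was left out, uncalled changes crossed 0 for Ciita at 6 h (-0.48 to 1.91) and over all libraries (-0.12 to 0.25), and for H2-DMb2 at 6 h (-3.87 to 1.33) and 2 h (-0.35 to 3.09). The median change of the 8 genes crossed 0 for doxorubicin at 12 h (-0.71 to 1.03) and 24 h (-0.05 to 1.28) in ad libitum mice and for refeeding at 2 h (-0.67 to 0.75) and 6 h (-0.25 to 1.35). The cause was not tested. Leaving out the 4 libraries rich in B cell markers was chosen after seeing the data. No paired analysis was possible because each genotype and state has 1 library, so no replicate numbers pair libraries across groups; matching on state, or on genotype and time, is already part of the fits. The interaction of genotype and feeding could not be fitted without the 4 libraries with conflicting titles.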
